A study of Mus musculus with 9 samples.

Results

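Matricellular proteins and fibronectin were followed in the mouse kidney as 10 genes chosen by name: Fn1, Sparc, Tnc, Postn, Ctgf, Cyr61, Thbs1, Thbs2, Mgp and Tgfbi. All 10 were found among the 22637 gene symbols of the deposited count tables, and all 10 were among the 17315 genes that passed the filter on low counts. The libraries came from whole kidney of 129X1/SvJ mice at 9 weeks of age, in 3 groups of 3. KO_antimiR21 kidneys were from Col4a3 -/- mice given antimiR-21, an oligonucleotide inhibitor of the microRNA miR-21. KO_PBS kidneys were from Col4a3 -/- mice given PBS, the vehicle, and WT kidneys were from wild-type mice with no treatment, so genotype and injection cannot be told apart in comparisons with WT. The knockout removes a chain of the type IV collagen of the glomerular basement membrane and is used as a model of Alport syndrome, a hereditary kidney disease. Nothing in the labels states that each library is a different animal, though each deposited name carries its own number, of unstated meaning. The p-values therefore cover the spread among these libraries, which may be technical in part.

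Matricellular proteins are secreted into the extracellular matrix, where they bind structural proteins, growth factors and cell surface receptors rather than carry load. They are low in most healthy adult tissue and are made by stromal cells, and by some epithelial cells, during wound repair and fibrosis. Fibronectin is a matrix glycoprotein that cells assemble into fibrils through integrins, and this early matrix serves as a scaffold for collagen. Several of these genes are known targets of TGF-beta signalling or of the transcriptional co-activators YAP and TAZ acting through TEAD factors.

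The sequences that bear on the inhibitor are those of miR-21 and of its matches in these genes. A microRNA pairs with target transcripts mainly through its seed, and transcripts with a match in the 3' untranslated region are candidates for repression. The mature mouse miR-21a-5p in RefSeq (GRCm38.p6, chr11:86584120-86584141, minus strand) is 22 bases long, and its seed, bases 2 to 8, is in capitals.
mmu-miR-21a-5p: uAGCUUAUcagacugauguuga
The longest GENCODE vM21 3' untranslated region of each gene was searched for the seed match. Of the 10 genes, 3 had a match of 7 bases or more, in capitals here within 30 bases of DNA.
Tgfbi, 8-base match starting at base 427 of 601: agaaacggcatcactATAAGCTAtgagttg
Sparc, 7-base match starting at base 296 of 1085: tggaaacggagttgcATAAGCTcaccgtcc
Postn, 7-base match starting at base 545 of 738: ctcgagatgattgtcATAAGCTtcttgcaa
Over the 21020 genes with such a region, 11.1% had a match of 7 bases or more of any type searched. The 8-base match was in 2.1%, and the 7-base match shown here or the 8-base match in 7.18%. These matches are descriptions of the sequence and not measured binding.

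RefSeq promoter windows, from 250 bases before to 50 bases after a start site, were matched for 6 of the genes in 8 windows (Sparc, Tnc, Postn, Cyr61, Thbs2 and Tgfbi; the genes not matched were Fn1, Ctgf, Thbs1 and Mgp). Both strands were searched for the TEAD motif CATTCC, the AP-1 motif TGANTCA, the SMAD motif GTCTAGAC, the TATA box TATAAA and the CArG box bound by SRF. The windows of Cyr61 and Tgfbi are shown because these genes had the lowest and the highest of the 10 differences between inhibitor and PBS. Capitals mark the TEAD motif and then the TATA box in Cyr61, and no motif was found in the Tgfbi window.
Cyr61 (Ccn1), GRCm38.p6 chr3:145649936-145650235, minus strand: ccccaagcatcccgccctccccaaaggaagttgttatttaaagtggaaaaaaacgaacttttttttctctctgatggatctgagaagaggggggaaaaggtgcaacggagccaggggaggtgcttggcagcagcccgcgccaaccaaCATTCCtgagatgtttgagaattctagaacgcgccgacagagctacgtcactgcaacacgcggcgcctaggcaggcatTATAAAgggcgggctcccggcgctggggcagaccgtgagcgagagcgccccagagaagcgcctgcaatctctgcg
Tgfbi, GRCm38.p6 chr13:56609336-56609635, plus strand: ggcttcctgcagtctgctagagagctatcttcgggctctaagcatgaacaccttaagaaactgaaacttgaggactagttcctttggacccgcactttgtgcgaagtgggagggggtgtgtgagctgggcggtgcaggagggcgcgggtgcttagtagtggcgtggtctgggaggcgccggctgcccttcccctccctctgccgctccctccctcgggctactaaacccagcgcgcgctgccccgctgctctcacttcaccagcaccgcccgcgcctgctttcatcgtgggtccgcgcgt
The TEAD motif was in 1 of the 8 windows, and 14.7% of all 32851 windows held it. The letters TATAAA, searched as the TATA box, were in 5 of the 8, against 13.6% of all windows. Those 5 windows belong to Tnc, Postn, Cyr61 and Thbs2, with 2 overlapping windows for Tnc that hold the same match. The match began at -25 from the start site in Cyr61 and at -26 in Postn. It began at -126 and -205 in the Tnc windows, and at -126 in Thbs2, there on the opposite strand. Whether these letters act as a TATA box was not tested. The AP-1, SMAD and CArG motifs were in 0 of the 8, against 7.81%, 0.213% and 1.63% of all windows.

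Total expected counts ran from 26448275 to 31786624 per library, so depth was alike across groups. Col4a3 itself stood at 104, 70.6 and 138 CPM (counts scaled to a fixed library total) in KO_antimiR21 and at 44.3, 94.3 and 60.2 CPM in KO_PBS, against 371, 257 and 316 CPM in WT, with every knockout library below every WT library. Y-linked transcripts marked 7 libraries as male, the exceptions being WT 1 and WT 3. This matched the letters F, M and F in the deposited names of WT 1, 2 and 3, while the knockout names carry no such letter. The deposited names carry a code of unstated meaning, L5 for the 3 KO_antimiR21 libraries and KO_PBS 3, and L4 for KO_PBS 1, KO_PBS 2 and the 3 WT libraries. Defining kidney markers were present, with summed CPM over 6 proximal tubule markers of 3137 to 6532 in KO_antimiR21, 1312 to 4133 in KO_PBS and 8163 to 11920 in WT.

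Together the 10 genes took 0.198%, 0.224% and 0.101% of all counts in KO_antimiR21 1, 2 and 3 and 0.421%, 0.352% and 0.277% in KO_PBS 1, 2 and 3, against 0.0504%, 0.0503% and 0.0496% in WT 1, 2 and 3. The ranges of the 3 groups did not overlap for this sum, to which Sparc and Mgp gave the most counts in each knockout library. Taken gene by gene, KO_antimiR21 lay wholly below KO_PBS for 5 of the 10, and for 6.85% of all genes. CPM below are relative to TMM-scaled library totals, in the order of replicates 1, 2 and 3. Levels are compared between libraries for each gene and not between genes, since CPM do not correct for gene length.

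**Figure D1:**
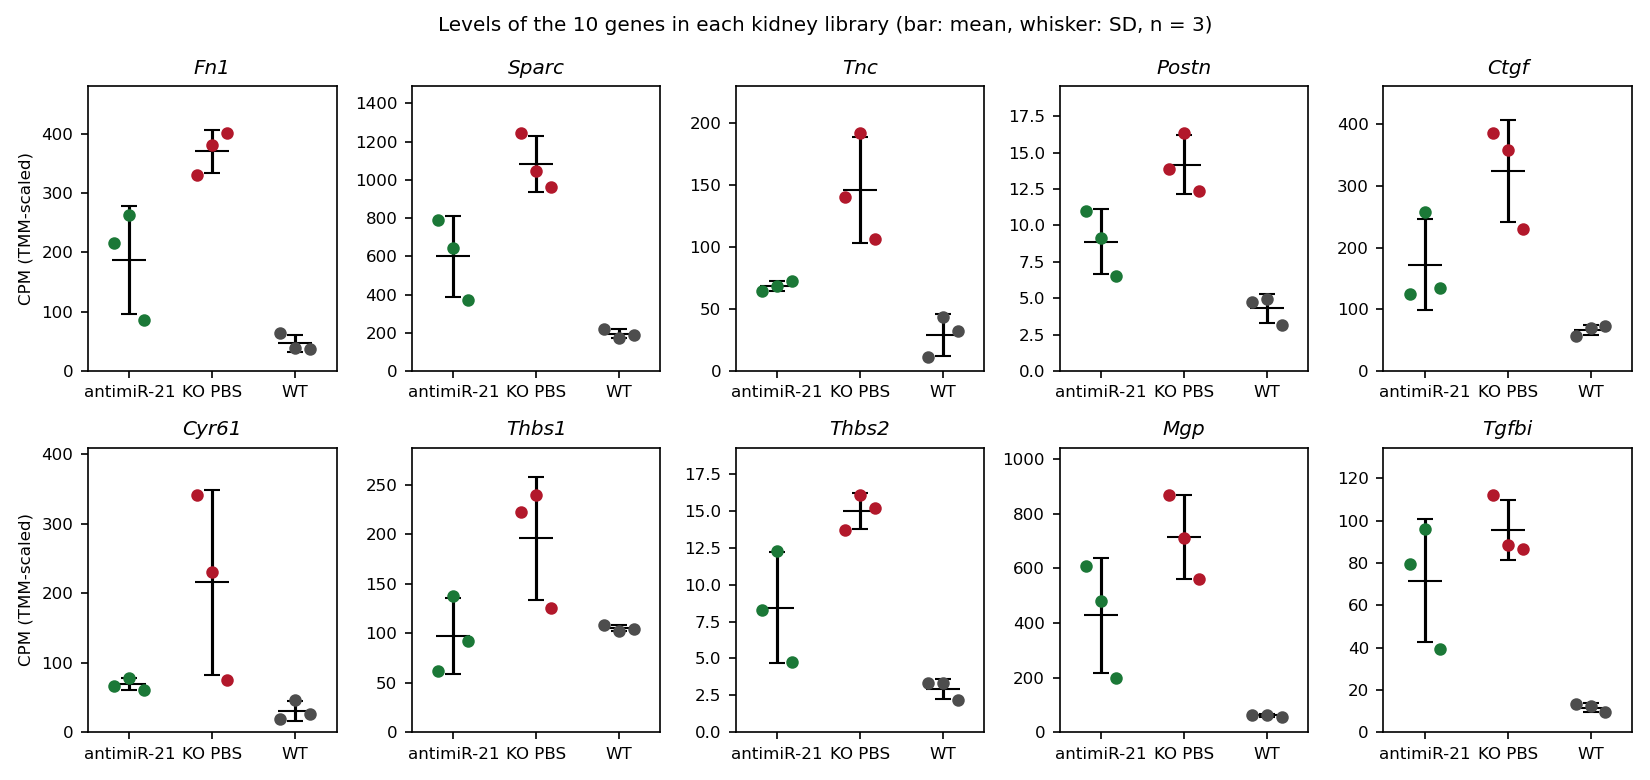
CPM of each of the 10 genes (y axis, linear, from 0) in the KO_antimiR21, KO_PBS and WT libraries (x axis); points are libraries (replicates 1, 2 and 3 from left to right), bars are means and whiskers SD (n = 3). For 9 of the genes every knockout library lies above every WT library, and Thbs1 is the exception, with KO_antimiR21 1 and 3 below all WT libraries.

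The first comparison asked how far these genes differ between the kidneys of vehicle-treated knockout and wild-type mice. In KO_PBS 9 of the 10 rose, by 3.29-fold to 11.5-fold, and Thbs1 did not pass the test. Across all genes tested, 14.6% rose by the same criterion, an edgeR adjusted p under 0.05. The median log2 fold change was 2.41 over the 10 genes and -0.03 over all genes tested. KO_PBS libraries lay above all WT libraries for 10 of the 10 genes, and for 22.6% of all genes.

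Fibronectin, the scaffold protein, stood at 330.1, 380.8 and 400.3 CPM in KO_PBS against 63.1, 38.3 and 37.7 CPM in WT. The lowest KO_PBS library was more than 5 times the highest WT library. Fn1 rose by 3.0 ± 0.40 on the log2 scale (estimate ± SE, edgeR adjusted p = 0.00185). Sparc encodes a collagen-binding glycoprotein that takes part in collagen fibril assembly. It stood at 1243, 1044 and 960.6 CPM in KO_PBS against 219, 174.8 and 189 CPM in WT. Both groups were tight, and Sparc rose by 2.48 ± 0.28 (edgeR adjusted p = 0.00135).

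Tenascin-C (Tnc), a large glycoprotein known to be induced at sites of injury, stood at 140, 191.4 and 106.6 CPM in KO_PBS against 10.8, 43.7 and 32.4 CPM in WT. WT 1 was the low library of its group, and the WT values spanned 4.03-fold. Tnc rose by 2.33 ± 0.44 (edgeR adjusted p = 0.00674). Periostin (Postn), which binds collagen and tenascin-C, was at 13.9, 16.3 and 12.4 CPM in KO_PBS against 4.77, 4.97 and 3.18 CPM in WT. It had the smallest rise of the 9, 1.72 ± 0.26 (edgeR adjusted p = 0.00272). Tgfbi, a relative of periostin named for its induction by TGF-beta, was at 112.1, 88.5 and 86.5 CPM in KO_PBS against 13.3, 12.3 and 9.41 CPM in WT. Its rise was 3.04 ± 0.32 (edgeR adjusted p = 0.00135). Within each library, the ratio of Postn to Tgfbi CPM, which no scaling of libraries alters, was 0.124, 0.184 and 0.143 in KO_PBS against 0.359, 0.405 and 0.336 in WT, with no overlap. It was 0.138, 0.0954 and 0.165 in KO_antimiR21, also below every WT library.

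Ctgf and Cyr61 encode the CCN proteins CCN2 and CCN1, which bind integrins and growth factors. Ctgf stood at 385.3, 358.3 and 230.5 CPM in KO_PBS against 56.3, 69.6 and 72.3 CPM in WT and rose by 2.30 ± 0.32 (edgeR adjusted p = 0.002). Cyr61 stood at 341.7, 230.4 and 76.1 CPM in KO_PBS against 19.4, 46.6 and 26.5 CPM in WT. It was the most variable of the 10 within KO_PBS, with a coefficient of variation of 61.7%, and KO_PBS 3 was 4.49-fold below KO_PBS 1. Cyr61 rose by 2.81 ± 0.52 (edgeR adjusted p = 0.00628). The ratio of Cyr61 to Ctgf CPM was 0.887, 0.643 and 0.33 in KO_PBS against 0.344, 0.669 and 0.367 in WT, with overlap between the groups.

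Of the thrombospondins, Thbs1 encodes a protein that can activate latent TGF-beta, and Thbs2 a relative without that activity that inhibits blood vessel growth. Thbs1 stood at 222.6, 239.8 and 125.3 CPM in KO_PBS against 108.6, 102.7 and 104.9 CPM in WT. The WT libraries spanned only 1.06-fold, and KO_PBS 3 lay near them. The log2 fold change of 0.89 ± 0.31 did not pass the test (edgeR adjusted p = 0.067), although it did in 8 of 20 alternative fits, among them that without KO_PBS 3 (1.12, edgeR adjusted p = 0.0334) and DESeq2 (adjusted p = 0.0268). Thbs2 stood at 13.7, 16.1 and 15.2 CPM in KO_PBS against 3.33, 3.33 and 2.17 CPM in WT and rose by 2.35 ± 0.34 (edgeR adjusted p = 0.00245). The ratio of Thbs2 to Thbs1 CPM was 0.0616, 0.0669 and 0.121 in KO_PBS, each above the 0.0307, 0.0324 and 0.0207 of WT. This ratio was 0.135, 0.0893 and 0.0514 in KO_antimiR21, also above every WT library.

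Mgp encodes matrix Gla protein, a vitamin K-dependent inhibitor of calcification. It stood at 867.7, 709.1 and 561.5 CPM in KO_PBS against 64.8, 63.8 and 57.4 CPM in WT. This was the largest change of the 10, a rise of 3.52 ± 0.39 or 11.5-fold (edgeR adjusted p = 0.00135). Of the enzymes of the vitamin K cycle that Mgp depends on, Vkorc1 fell by 0.53 ± 0.16 (edgeR adjusted p = 0.0407), and Ggcx was at -0.39 ± 0.17 (edgeR adjusted p = 0.142). This pair was chosen after its values were seen.

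With sex as a covariate, where the difference rests on the male library WT 2, edgeR called 0 of the 10 genes and 0 of all genes, while 9 of the 10 and 4389 of all genes had an unadjusted p under 0.05. The 10 estimates were all above 0 with a median of 2.22, with Tnc at 1.74 and Cyr61 at 2.21, and edgeR adjusted p from 0.0553 to 0.281.

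**Figure D2:**
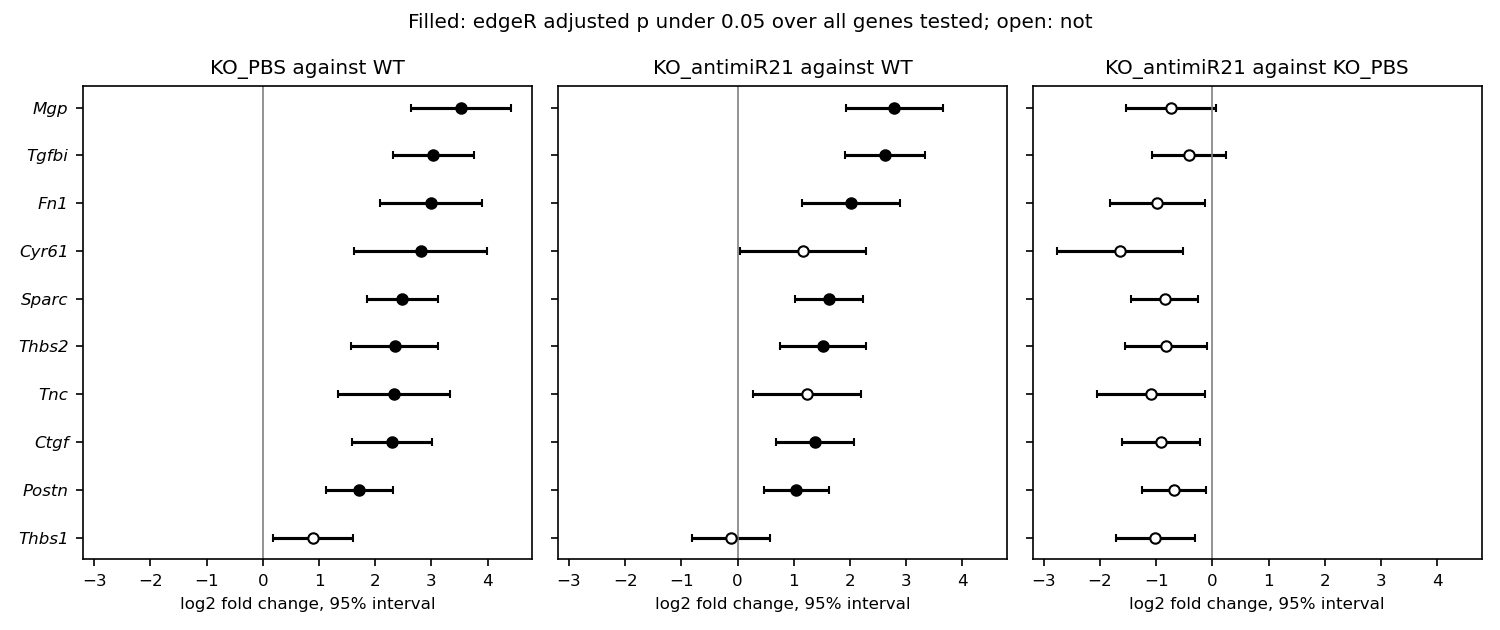
Log2 fold changes (x axis) of the 10 genes (y axis) in each comparison with 95% confidence intervals from edgeR, filled where the adjusted p over all genes was under 0.05. In KO_PBS against WT 9 are filled, in KO_antimiR21 against WT 7, and in KO_antimiR21 against KO_PBS none, where all 10 estimates lie below 0.

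The second comparison asked what the inhibitor changed in knockout kidneys. None of the 10 genes passed the test between KO_antimiR21 and KO_PBS, and no gene of the 17315 did (0%) by edgeR. Unadjusted p-values were under 0.05 for 8 of the 10 genes and for 1203 of all genes. DESeq2 called 19 genes and 0 of the 10, with adjusted p of 0.157 to 0.812 for them, and limma on the deposited log2 matrix called 0 genes. All 10 estimates were below 0, with a median of -0.88, whereas 51.9% of all genes were below 0 with a median of -0.01. The 3 KO_antimiR21 libraries lay below all KO_PBS libraries for 5 of the 10 (Fn1, Sparc, Tnc, Postn and Thbs2), and for 6.85% of all genes.

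Fn1 stood at 215, 262.2 and 86.3 CPM in KO_antimiR21, against 330.1 CPM or more in KO_PBS. Its log2 fold change was -0.98 ± 0.37 (95% interval -1.83 to -0.13, edgeR adjusted p = 0.707). KO_antimiR21 3 was the low library, 3.04-fold below KO_antimiR21 2. Sparc was at 788.5, 643.7 and 369.9 CPM in KO_antimiR21, with a log2 fold change of -0.85 ± 0.27 against KO_PBS (edgeR adjusted p = 0.707). Tnc was at 64.4, 68.7 and 72.3 CPM in KO_antimiR21, the tightest of the 10 in that group, with a log2 fold change of -1.09 ± 0.42 (edgeR adjusted p = 0.707). Fn1, Sparc and Tnc thus had separated groups and intervals below 0 without passing the test over all genes. The same held for Postn (95% interval -1.25 to -0.11) and Thbs2 (95% interval -1.56 to -0.09).

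Postn was at 10.98, 9.15 and 6.51 CPM in KO_antimiR21, with a log2 fold change of -0.68 ± 0.25 (edgeR adjusted p = 0.707). Tgfbi was at 79.6, 95.9 and 39.5 CPM in KO_antimiR21, overlapping with KO_PBS. Its value of -0.42 ± 0.29 was the one nearest 0, with a 95% interval of -1.08 to 0.25 (edgeR adjusted p = 0.781). The 3 genes with a miR-21 seed match printed above, Tgfbi, Postn and Sparc, ranged from -0.85 to -0.42, and the 7 without ranged from -1.64 to -0.74. The difference between genes with and without a match was not tested.

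Ctgf was at 125.4, 257.8 and 134.6 CPM in KO_antimiR21, where KO_antimiR21 2 lay above KO_PBS 3, and its log2 fold change was -0.91 ± 0.30 (edgeR adjusted p = 0.707). Cyr61 was at 67.1, 78.5 and 61.7 CPM in KO_antimiR21. Its estimate was the lowest of the 10, -1.64 ± 0.50 (95% interval -2.77 to -0.52, edgeR adjusted p = 0.707), yet the whole distance came from KO_PBS 1 and 2, since KO_PBS 3 at 76.1 CPM lay among the KO_antimiR21 values. The Cyr61 to Ctgf ratio was 0.535, 0.304 and 0.458 in KO_antimiR21, overlapping with both other groups.

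Thbs1 was at 61.6, 137.5 and 92.3 CPM in KO_antimiR21, with a log2 fold change of -1.01 ± 0.31 against KO_PBS (edgeR adjusted p = 0.707). Thbs2 was at 8.30, 12.3 and 4.74 CPM, with a log2 fold change of -0.83 ± 0.33 (edgeR adjusted p = 0.707). Mgp was at 607, 480.1 and 197.2 CPM, with KO_antimiR21 1 above KO_PBS 3. Its log2 fold change was -0.74 ± 0.36, with an interval of -1.54 to 0.07 (edgeR adjusted p = 0.707). KO_antimiR21 3 was the lowest library of its group for 7 of the 10 genes, and without it the median of the 10 was -0.59, with 3 of them and 403 of 17595 genes at an unadjusted p under 0.05. The same library held 151.3 summed CPM over 3 adipocyte markers, beside 0.582 and 8.47 in KO_antimiR21 1 and 2, 0.652 to 17.8 in KO_PBS and 6.03 to 48.2 in WT. The part of these markers in the values was not tested.

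The library code moves with the treatment, since KO_PBS 3 is the only PBS library that shares the code L5 with the inhibitor libraries. KO_PBS 3 was the lowest of its group for 8 of the 10 genes, the exceptions being Fn1, for which it was the highest, and Thbs2. With the code as a covariate, or within the code L5 alone, the difference rests on KO_PBS 3. In the covariate fit the median of the 10 was -0.45, and edgeR gave 0 of the 10 an unadjusted p under 0.05, against 221 of all genes. Cyr61 moved most, to -0.14 ± 0.44, and Thbs1 to -0.37 ± 0.36 and Ctgf to -0.42 ± 0.38. Fn1 at -1.09 ± 0.52 and Thbs2 at -0.84 ± 0.47 were close to their values over all 9 libraries. Within the code L5 alone the median of the 10 was also -0.45. The part of the code in these differences was not tested apart from these fits.

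**Figure D3:**
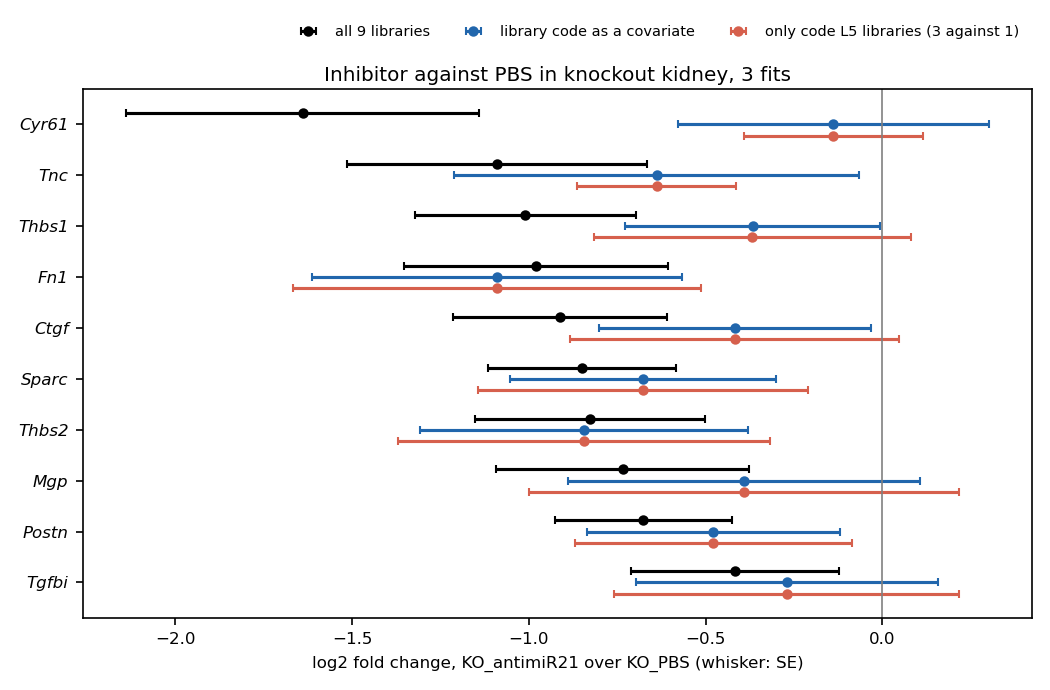
Log2 fold changes of KO_antimiR21 over KO_PBS (x axis, whiskers SE) for each gene (y axis) over all 9 libraries, with the library code as a covariate, and in code L5 libraries only, where 3 KO_antimiR21 libraries stand against KO_PBS 3. Cyr61 moves from the lowest value to near 0, while Fn1 and Thbs2 hardly move.

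The third comparison set inhibitor-treated knockout kidneys beside WT, and it shares its WT libraries with the first. In KO_antimiR21 7 of the 10 genes rose against WT, where 6.72% of all genes rose. The groups did not overlap, with KO_antimiR21 higher, for 9 of the 10, and for 14.6% of all genes. The median log2 fold change was 1.45 over the 10 and -0.04 over all genes. Mgp rose by 2.79 ± 0.38 (edgeR adjusted p = 0.00458) and Tgfbi by 2.62 ± 0.31 (edgeR adjusted p = 0.00417), the same pair that led with KO_PBS. Fn1 rose by 2.02 ± 0.39, Sparc by 1.63 ± 0.27, Thbs2 by 1.52 ± 0.34, Ctgf by 1.39 ± 0.31 and Postn by 1.04 ± 0.26, with edgeR adjusted p from 0.00836 to 0.0436.

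The remaining 3 genes did not pass against WT. Tnc was at 1.24 ± 0.43 (edgeR adjusted p = 0.137) and Cyr61 at 1.16 ± 0.50 (edgeR adjusted p = 0.232), although both had every KO_antimiR21 library above every WT library. Thbs1 averaged 97.1 ± 38.2 CPM in KO_antimiR21 and 105 ± 2.96 CPM in WT (SD, n = 3 each), a log2 fold change of -0.12 ± 0.31 with an interval of -0.82 to 0.58 (edgeR adjusted p = 0.885). The number of the 10 called was 3 without KO_antimiR21 2 or without WT 3, where 679 and 667 of all genes were called, against 1238 over all libraries. It was 4 without KO_PBS 2, WT 1 or WT 2, where 925, 758 and 1160 genes were called. With sex as a covariate edgeR called 0 of the 10 and 0 of all genes, with 6 of the 10 and 2115 of all genes at an unadjusted p under 0.05. With the library code it called 0 and 0, with 9 of the 10 and 2031 of all genes at an unadjusted p under 0.05. The median log2 fold change of the 10 was 1.33 with sex and 1.88 with the code, beside 1.45 without them. With sex, the difference rests on the male library WT 2. The KO_antimiR21 libraries all carry L5 and the WT libraries all carry L4. The code effect in that fit therefore came only from KO_PBS 3 beside KO_PBS 1 and 2, and cannot be told apart from other differences between those libraries.

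Related genes of the same families, receptors, upstream signals and processing enzymes were read from 5 lists, and calls below are over all genes tested. Of 20 further matricellular and related matrix genes, 18 could be tested, and 8 rose and 0 fell in KO_PBS against WT, with a median of 1.15. Spp1, which encodes osteopontin, rose by 3.66 ± 0.44, Fstl1, a secreted SPARC relative, by 1.75 ± 0.22, the matrix protein Fbln2 by 1.66 ± 0.23, Thbs3 by 1.31 ± 0.29 and the SPARC relative Sparcl1 by 0.99 ± 0.16 (edgeR adjusted p from 0.00149 to 0.0137). In KO_antimiR21 against WT 3 of the 18 rose (Spp1, Fbln2 and Fstl1). None of the genes of the 5 lists passed between KO_antimiR21 and KO_PBS.

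Of 16 receptors for these proteins, 10 rose and 0 fell in KO_PBS, with a median of 0.85. The integrin subunit Itga5, part of the main fibronectin receptor, rose by 1.61 ± 0.23, and Itga4, part of another fibronectin receptor, by 1.28 ± 0.22. Lrp1, an endocytic receptor that takes up thrombospondins and CTGF, rose by 1.56 ± 0.16, the proteoglycan Sdc1 by 1.81 ± 0.25 and the thrombospondin receptor Cd47 by 1.04 ± 0.18 (edgeR adjusted p from 0.00135 to 0.00516 for the 5). These same 5 receptors were the ones that rose in KO_antimiR21 against WT, by 0.85 to 1.16. In KO_antimiR21 against KO_PBS, 1 of the 16 estimates was above 0.

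Of 11 genes of TGF-beta ligands, receptors and mediators, 6 rose and 0 fell in KO_PBS, with a median of 1.13. The ligands Tgfb1 and Tgfb3 rose by 1.56 ± 0.23 and 1.64 ± 0.29 and the receptors Tgfbr2 and Tgfbr1 by 1.13 ± 0.21 and 1.18 ± 0.23 (edgeR adjusted p from 0.00238 to 0.00723). Of 13 genes of the YAP, TEAD and SRF pathways, 2 rose in KO_PBS, where 14.6% of all genes rose. These were Axl (2.14 ± 0.24, edgeR adjusted p = 0.00135) and Ankrd1 (3.05 ± 0.47, edgeR adjusted p = 0.00288). The co-activator Wwtr1, which encodes TAZ, was at 0.29 ± 0.12 (edgeR adjusted p = 0.114), Tead2 at 0.79 ± 0.28 (edgeR adjusted p = 0.0716) and Mkl1 at 0.47 ± 0.18 (edgeR adjusted p = 0.0926). Amotl2 at 0.05 ± 0.18, Lats2 at -0.14 ± 0.18 and Yap1 at -0.03 ± 0.14 did not pass (edgeR adjusted p from 0.623 to 0.89). The list's median was 0.29.

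Of 11 enzymes that cleave, cross-link or carboxylate matrix proteins, 7 rose and 1 fell in KO_PBS. The gelatinases Mmp2 and Mmp9 rose by 2.51 ± 0.24 and 3.87 ± 0.43, the membrane-bound Mmp14 by 2.86 ± 0.38, the protease Adamts1 by 2.29 ± 0.28 and the cross-linking enzyme Lox by 2.99 ± 0.38 (edgeR adjusted p from 0.00135 to 0.00184). In KO_antimiR21 against WT, Mmp2, Mmp9, Mmp14 and Adamts1 rose, by 1.42 to 2.83.

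Several markers of stromal and immune cells also differed between the groups. The 8 fibroblast and pericyte markers summed to 431 to 879.3 CPM in KO_antimiR21 and 1345 to 1592 CPM in KO_PBS, against 255.3 to 291.8 CPM in WT, and 6 of the 8 rose in KO_PBS against WT. The largest parts of the KO_PBS sum were the collagen genes Col1a1 and Col1a2, at means of 405.6 and 690.5 CPM. Pdgfra and Lum did not pass (edgeR adjusted p = 0.174 and 0.0536). The 8 macrophage markers summed to 344.2 to 716.2 CPM in KO_antimiR21 and 718.1 to 923.6 CPM in KO_PBS. In WT they summed to 166.8 to 199.4 CPM, and 7 of the 8 were higher in KO_PBS than in WT. Csf1r did not pass, at 0.29 ± 0.13 (edgeR adjusted p = 0.143). Its means were 164.5 CPM in KO_PBS and 134.7 CPM in WT, so it made up most of the WT sum. The 6 smooth muscle markers summed to 268.2 to 370.3 CPM in KO_antimiR21 and 451.4 to 762.1 CPM in KO_PBS, against 244 to 286.9 CPM in WT. Of these 6, only 2 (Acta2 and Tagln) passed as higher in KO_PBS than in WT, and Myh11 was at -0.19 ± 0.29. None of the fibroblast and pericyte, macrophage or smooth muscle markers was at 0 in any library. Tubule markers went the other way, with 4 of the 6 proximal tubule markers lower in KO_PBS than in WT (median -1.54). Of 5 distal nephron markers, 2 were lower (median -1.13), and their sums were 4002 to 6656 CPM in KO_antimiR21 and 2399 to 4663 CPM in KO_PBS, against 5334 to 8052 CPM in WT. Of 7 endothelial markers, 0 were higher and 1 was lower in KO_PBS than in WT (median -0.32). Of 6 podocyte markers, 1 was higher and 0 were lower (median 0.28). Beside these counts, 14.6% of all genes tested were higher in KO_PBS than in WT, and 1705 of 17315 were lower. In whole kidney, a change in the number of cells of a type and a change in RNA per cell cannot be told apart, and the part of cell makeup in the results on the 10 genes was not tested.

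The 10 immediate early genes, which respond within minutes to stress and to handling of tissue, summed to 307.9, 400.4 and 312.1 CPM in KO_antimiR21 and to 908.5, 679.2 and 411 CPM in KO_PBS, against 153.1, 432.1 and 492.6 CPM in WT. KO_PBS 1, 2 and 3 stood in the same order for this sum and for 5 of the 10 genes (Cyr61, Ctgf, Sparc, Mgp and Tgfbi), and not for the other 5, with Fn1 in the reverse order. WT 1 was lowest in its group for the sum and for Cyr61, Tnc and Ctgf, but highest for Fn1, Sparc, Thbs1, Thbs2, Mgp and Tgfbi. Of the 10 immediate early genes, 4 passed as higher in KO_PBS than in WT (median 1.24), where 14.6% of all genes rose. In KO_antimiR21 against WT 0 of them passed (median -0.04), where 6.72% of all genes rose. The part of the immediate early genes in the results was not tested.

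**Figure D4:**
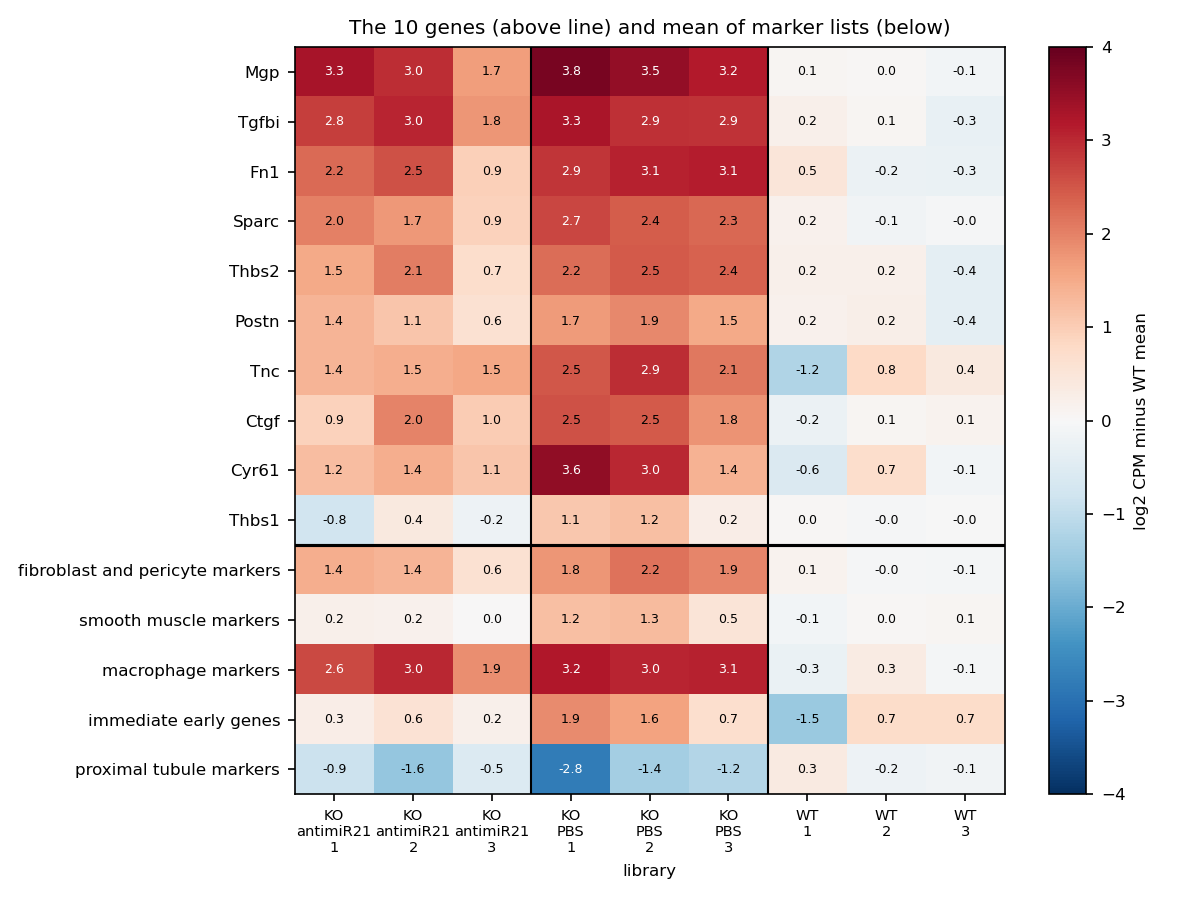
Log2 CPM minus the WT mean (colour and printed number) for the 10 genes and for the mean of 5 marker lists (rows) in the 9 libraries (columns). Mgp, Tgfbi, Fn1 and Sparc are lowest among knockout libraries in KO_antimiR21 3. The fibroblast and pericyte, smooth muscle, macrophage and immediate early rows are lowest there too, and the proximal tubule row is highest. Cyr61 is high in KO_PBS 1 and 2 and not in KO_PBS 3.

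The 10 genes did not all vary alike. Over the 6 knockout libraries, Pearson's r of log2 CPM between pairs ran from 0.43 for Tnc and Tgfbi to 0.98 for Fn1 and Thbs2, with Sparc and Mgp at 0.97 and Ctgf and Thbs1 at 0.97. These values are descriptions over libraries that share treatment groups and library codes. Among the 12475 genes averaging 2 or more in log2 CPM, the genes whose pattern over the 9 libraries was most like that of Fn1 were Edg5 (r = 0.99), Col1a1 (0.99) and Col15a1 (0.99), and for Sparc they included Col1a2 (0.996) and Bgn (0.99). For Thbs2 they were Fbn1, Ppp1r9b and Col8a1, at 0.99 each. For Ctgf they were Klf6 (0.997), Leprot (0.99) and Rnd3 (0.99), and for Tnc they included the immediate early factor Egr2 (0.98). Cyr61 was most like Cep78 (0.98) and Ube2j1 (0.98), Postn most like Tnfaip2 (0.997) and Adamts2 (0.99), Mgp most like Nfkbie and H2-Eb1 (0.99 each), and Tgfbi most like Rap2b and Cd74 (0.995 each). Thbs1 had no gene as near, with Phf13 the nearest at 0.94. Knockout and WT libraries do not overlap for 9 of the 10 genes, and these coefficients carry that difference between groups.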

How the data were processed

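Messenger RNA was sequenced from 9 whole-kidney libraries, prepared with a TruSeq v2 kit (150 ng input RNA), per the labels' protocols. The authors deposited expected counts per gene symbol for each library, made with Bowtie and RSEM on mm9, per the submitters' processing notes; tool versions, annotation and strand are not given in the sources used here. RSEM shares reads among near-identical copies, and overlapping genes were not separated. A second deposited file holds log2 values of the 9 libraries; each column equals log2 CPM plus a constant per library to within 5.1e-14.

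Before testing, expected counts were rounded and genes filtered by filterByExpr. The main test was edgeR 4.0.16 (R 4.3.3) quasi-likelihood, fitted to all 9 libraries with 3 group means and TMM scaling (factors 0.894 to 1.15), two-sided, with Benjamini-Hochberg adjustment over all 17315 genes tested and a threshold of 0.05. Each edgeR SE was derived as the absolute log2 fold change over the square root of the quasi-likelihood F. Intervals were built from these SE and are 95% and unadjusted. DESeq2 1.42.0, limma 3.58.1 on the deposited log2 values, other scalings, no filter, covariates for sex and library code, a replicate block and leaving out each library were alternatives. Fits to male libraries only and to code L4 or L5 only were added after seeing the data. The edgeR steps were tested on simulated data. Replicates were not copies of one another, with a chi-square per gene of 30.7 to 137.2 within groups.

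The 10 genes and the gene lists were chosen with earlier results of these data known. Named genes are the 10 members, Col4a3, up to 5 genes with the lowest p in KO_PBS against WT from each pathway list, and genes most alike by Pearson's r, of which the 3 highest were taken and part is printed. Vkorc1, Ggcx, Yap1, Amotl2, Lats2 and the cell type markers named fall outside this rule. Not every gene that the rule takes is reported here. Library sex was called male at 10 or more summed CPM of Y-linked transcripts.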

Additional observations from a re-analysis of the deposited data

How the results depend on the processing

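Between KO_antimiR21 and KO_PBS, all 10 estimates stayed below 0 and none passed in any of 20 alternatives, while the genes called over all were 19 with DESeq2 and 0 otherwise; leave-one-out fits gave 3 to 8 of the 10, and 403 to 2558 of all genes, at an unadjusted p under 0.05. Between KO_PBS and WT, of 200 values over the 10 genes, 174 kept direction and side of the threshold, 8 (all Thbs1) passed newly and 18 no longer passed, these with sex as a covariate or in male libraries only, where edgeR called 0 of the 10 and 0 genes (4389 and 4396 genes at an unadjusted p under 0.05). Leaving out 1 library gave 2423 genes (without KO_PBS 1), 2584 (without KO_PBS 2) and up to 4332, against 4226 in the fit to all libraries. Scaling by library size without TMM gave 3753 higher and 904 lower genes, against 2521 and 1705 with TMM, and shifted the median of all genes to 0.25. Between KO_antimiR21 and WT, where 1238 genes were called, DESeq2 called 2010, the fit to these 2 groups alone 707 (4 of the 10 genes), and fits with sex, with library code or in male libraries 0 (0 of the 10), with 2115, 2031 and 2192 genes at an unadjusted p under 0.05 and a median of the 10 of 1.33, 1.88 and 1.36, beside 1.45. Leave-one-out fits called 667 to 1602 genes and 3 to 7 of the 10. The Thbs1 estimate turned positive with library size only (0.0561), with library code (0.766) and without KO_antimiR21 1 (0.125), and its leave-one-out values ran from -0.438 to 0.125. In the fits with library code, the code effect came only from KO_PBS 3 beside KO_PBS 1 and 2. The causes were not tested. Replicate numbers did not pair the libraries: deviations of 9 same-numbered pairs correlated at -0.37 to 0.44, and libraries correlated best with their own number in 4 of 18 cases. With the replicate block edgeR called 3205 genes and 9 of the 10 in KO_PBS against WT, 0 and 0 in KO_antimiR21 against KO_PBS, and 923 and 7 in KO_antimiR21 against WT.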
